A study of Homo sapiens with 12 samples.

Results

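Laminin-332 and hemidesmosome genes are described here in Ewing sarcoma cells before and after induction of c-Jun and c-Fos, subunits of the transcription factor AP-1. The genes were chosen by name and comprise *LAMA3* and *LAMB3* (laminin chains), *ITGA6* and *ITGB4* (the receptor), *COL17A1* and *CD151* (transmembrane partners), and *DST* and *PLEC* (plaque linkers). These 8 genes, out of 58721 in the count table, were found by symbol and all passed the filter on low counts that 21013 genes passed. The libraries came from the Ewing sarcoma lines EW8 and TC71. Each line carried 2 lentiviral vectors, a transactivator (Tet-On 3G) driven by the EF1 alpha promoter and c-Jun and c-Fos cDNAs joined through a self-cleaving peptide behind a doxycycline-responsive promoter. The 4 groups were EW8 with vehicle (DMSO), EW8 with doxycycline at 2000 ng/ml, TC71 with vehicle and TC71 with doxycycline at the same dose, all for 72 h, with 3 libraries in each. Vehicle cells carried the same vectors. Whether either line is 1 clone, and whether the replicates were separate cultures, is not given in the sources used here, so p-values measure only the spread between these libraries. Doxycycline-treated cells without the transgenes were not analysed here, so an effect of doxycycline itself and one of c-Jun and c-Fos cannot be told apart.

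Laminin-332 is a basement membrane protein whose α3 and β3 chains are encoded by *LAMA3* and *LAMB3*. In skin and other stratified epithelia it is bound from the cell side by integrin α6β4, the product of *ITGA6* and *ITGB4*. Plectin (*PLEC*) and the epithelial form of dystonin (*DST*, known as BP230) link this receptor to keratin filaments, while collagen XVII (*COL17A1*, BP180) and the tetraspanin CD151 lie beside it in the membrane. The assembled structure is the hemidesmosome, and inherited loss of its parts is known to cause blistering of the skin. Ewing sarcoma is a tumor of bone and soft tissue that is not known for hemidesmosomes. Only RNA was measured, and proteins and assembled structures were not.

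Since the induced factors are known to bind the motif TGACTCA, which reads TGAGTCA on the opposite strand, the start-site windows of the members were read for it. *PLEC* was left out by choice, and *ITGB4* and *CD151* had no window at hand. RefSeq windows (GRCh38.p14, 250 bases before to 50 after a start) were read for the other 5 members, *LAMA3*, *LAMB3*, *ITGA6*, *COL17A1* and *DST*, as 10 windows in all. Of these, 3 windows from 3 members held the motif, against 4.95% of 35116 windows and 6.05% of 27305 genes in the whole table. These shares are not like for like, since the 5 members had more windows per gene than the whole table. Some windows of *LAMB3* and of *ITGA6* also overlap each other. The *LAMA3* window holds it at both -125 and -69 from the start, and it lies 183577 bases inside the gene from the annotated 5′ end, where 2 coding transcripts of GENCODE release 44 start. The *LAMB3* window that holds it, at -67, is 1 of 3, and its start lies 1092 bases inside the gene. The *DST* window that holds it, at 26 bases past the start, is the most upstream of 3. The *COL17A1* window, shown because its gene had the largest response, and both *ITGA6* windows hold no match. A match is a description of these letters and not evidence of binding. The windows are printed 5′ to 3′ on the strand of the gene, with the motif in capitals.
LAMA3, chr18:23872770-23873069, plus strand: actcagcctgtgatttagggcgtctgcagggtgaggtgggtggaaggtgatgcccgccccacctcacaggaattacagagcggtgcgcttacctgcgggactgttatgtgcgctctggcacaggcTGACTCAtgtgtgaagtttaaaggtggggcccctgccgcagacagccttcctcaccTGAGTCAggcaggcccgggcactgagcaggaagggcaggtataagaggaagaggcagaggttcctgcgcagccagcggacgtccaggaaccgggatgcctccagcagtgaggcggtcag
LAMB3, chr1:209651325-209651624, minus strand: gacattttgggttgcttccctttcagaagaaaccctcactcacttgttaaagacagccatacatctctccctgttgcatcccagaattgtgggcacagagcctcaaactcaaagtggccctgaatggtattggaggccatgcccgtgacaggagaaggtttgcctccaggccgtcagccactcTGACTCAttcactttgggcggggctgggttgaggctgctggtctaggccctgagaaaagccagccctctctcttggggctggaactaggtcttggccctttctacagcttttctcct
DST, chr6:56954781-56955080, minus strand: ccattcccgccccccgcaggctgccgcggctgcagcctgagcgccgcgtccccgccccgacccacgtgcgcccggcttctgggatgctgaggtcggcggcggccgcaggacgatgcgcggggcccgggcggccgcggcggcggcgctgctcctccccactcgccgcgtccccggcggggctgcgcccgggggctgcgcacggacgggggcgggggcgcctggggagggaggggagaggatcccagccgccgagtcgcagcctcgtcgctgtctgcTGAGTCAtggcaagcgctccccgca
COL17A1, chr10:104085831-104086130, minus strand: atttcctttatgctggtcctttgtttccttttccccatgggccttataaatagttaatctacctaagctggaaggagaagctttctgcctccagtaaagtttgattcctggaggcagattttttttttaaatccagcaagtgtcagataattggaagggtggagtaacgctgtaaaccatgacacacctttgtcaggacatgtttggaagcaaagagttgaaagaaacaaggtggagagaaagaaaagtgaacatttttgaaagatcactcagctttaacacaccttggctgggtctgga

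Levels are given in CPM (counts scaled to a library of fixed size, with TMM factors), and errors are the SD of 3 libraries unless named SE. Library totals ran from 42860665 to 60853649 counts, with each mate of a pair counted. The induced genes followed the labels: *JUN* rose by a log2 of 4.46 in EW8 and 5.19 in TC71, and *FOS* by 4.87 and 7.08. The pairs of replicates with TC71 vehicle replicate 1 stood apart, with root mean square log2 differences of 0.387 and 0.397 against 0.183 to 0.248 for the other 10 pairs, and results that turn on this library are given without it as well. All 10 Ewing sarcoma markers examined were above the floor of 6 counts (3 read pairs) in every group, with a summed level between 2640 and 3192.5 CPM. Most of that sum came from *CCND1* and *CD99*. In EW8 0 were called higher and 2 lower, *PAX7* (105.8 to 44.4 CPM) and *LIPI* (47.7 to 18.1 CPM). In TC71 0 were called higher and 1 lower, *PAX7* (105.5 to 43.8 CPM). Before adjustment, those with p under 0.05 (edgeR) were 7 lower and 1 higher in EW8, and 7 lower and 2 higher in TC71. Of 14 markers of keratinocytes and other epithelial cells, 9, 9, 7 and 8 were above the floor in EW8 vehicle, EW8 doxycycline, TC71 vehicle and TC71 doxycycline. Their summed level ran from 1689 to 1771, 1199 to 1237, 949 to 970.1 and 1318 to 1473 CPM, mostly from *PKP1* (1489, 1092, 926 and 1305 CPM), while *DSG3* and *DSC3* had 0 counts in all libraries, *KRT5* at most 2 and *KRT14* at most 13. Of the 8 tested among these 14 markers, 4 were called higher and 2 lower in EW8, and 4 higher and 3 lower in TC71. *TP63*, a regulator of basal keratinocytes (means of 147.7, 71.3, 1.84 and 0.392 CPM), and *KRT17* (90.1, 32.9, 4.19 and 0.836 CPM) were called lower in both lines, although the *TP63* call in EW8 was lost with DESeq2 (adjusted p 0.0625) and, by its fold, without EW8 vehicle replicate 3 or EW8 doxycycline replicate 1. *PERP* (2.06, 13.1, 25.9 and 79.6 CPM) and *SFN* (0.149, 4.25, 0.221 and 7.40 CPM) were called higher in both, *EPCAM* in TC71 (from 0.707 to 11.9 CPM), and *CDH3* was higher in EW8 (1.47 to 3.69 CPM) and lower in TC71 (3.71 to 1.36 CPM). *KRT15* was also called higher in both, near the floor. It went from at most 3 counts to between 14 and 16 in EW8, and from 0 to between 1 and 16 in TC71. Of 9 markers of blood, vessel, liver and lung cells, 4, 7, 0 and 5 were above the floor. Their summed level ran from 73.1 to 80.6, 113 to 122, 0.0644 to 0.191 and 3.80 to 5.26 CPM, led in EW8 by *PTPRC* (65.9 CPM with vehicle and 74.9 CPM with doxycycline). Of the 5 tested, 2 were called higher in EW8 and 3 in TC71 (3 in each with DESeq2), and 0 lower. *PECAM1* (7.07, 37.5, 0 and 3.66 CPM) and *VWF* (0.0655, 2.53, 0 and 0.298 CPM) were called in both lines. *CDH5* was called in TC71, from at most 2 counts to between 4 and 10. The part of these markers in the results was not tested.

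In both lines the same 7 of the 8 members were higher with doxycycline, and *ITGB4*, the β subunit of the receptor, was not. Calls required an adjusted p under 0.05 (edgeR quasi-likelihood test, Benjamini-Hochberg over the 21013 genes) and a log2 fold change above 1 or below -1. Among all genes tested, 11.4% were called higher and 3.38% lower in EW8, and 12.3% were called higher and 3.67% lower in TC71. The members' count was 7 higher and 0 lower in each line (also with DESeq2, and 0 were lower at p under 0.05 before adjustment), and their median log2 fold change was 1.74 in EW8 and 1.79 in TC71, beside -0.03 and 0 for all genes. For each of the 7, the 3 doxycycline libraries of a line lay above its 3 vehicle libraries, and for *ITGB4* the groups overlapped. This separation is no further support, since the 7 were called from these same libraries. Its share among all genes was not counted. In bulk RNA, fewer expressing cells and less RNA per cell cannot be told apart. The lines share no libraries, but all 12 libraries entered 1 fit with shared scaling and a shared estimate of the spread. The values and p-values of a line therefore also depend on the libraries of the other line.

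**Figure D1:**
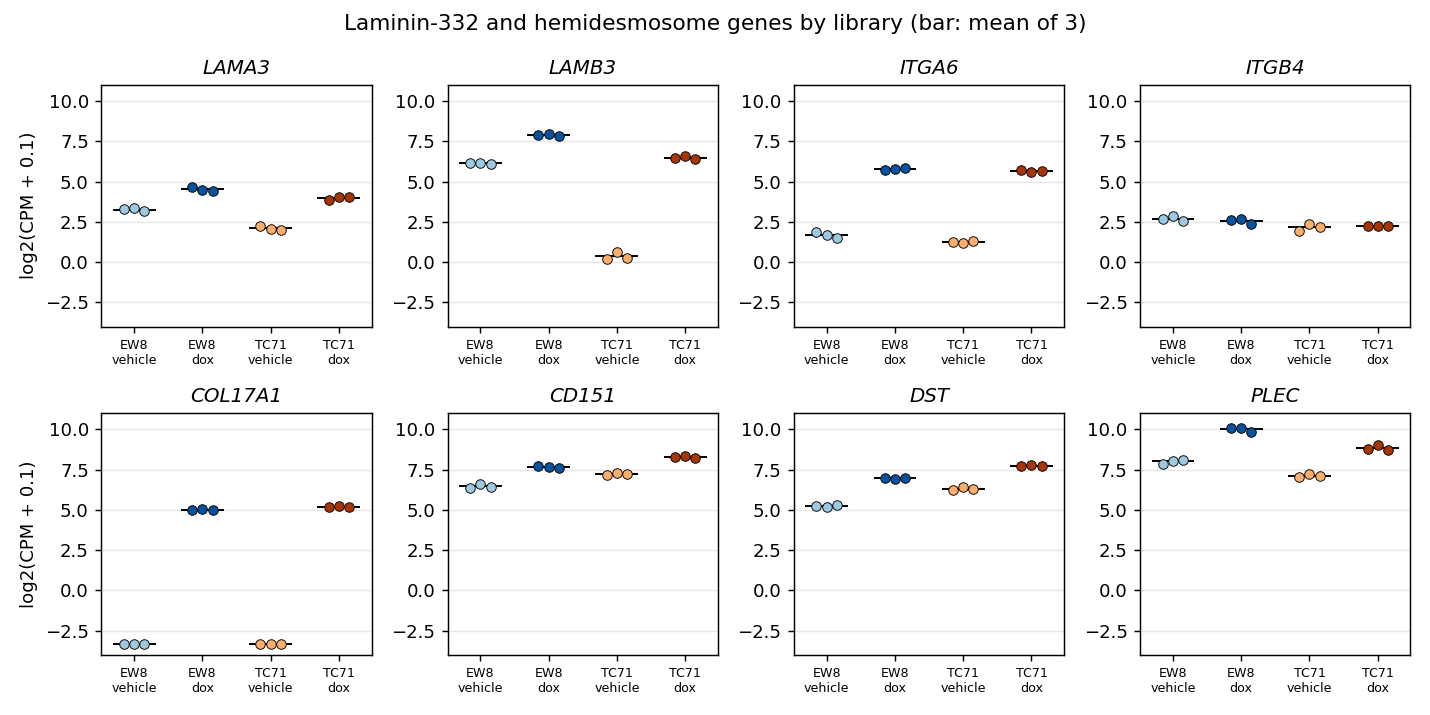
Level of each member as log2(CPM + 0.1) in every library (points) with the mean of 3 (bar), by line and treatment. *COL17A1* sits at 0 counts in the 6 vehicle libraries, *LAMB3* spans the widest range between the lines under vehicle, and the *ITGB4* points of a line overlap.

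The ligand chains were examined first. *LAMA3* (ENSG00000053747.16, chromosome 18, 23689443 to 23956222, plus strand), the α3 chain, was at 9.59, 10.0 and 8.78 CPM in the EW8 vehicle libraries and at 25.2, 22.6 and 21.3 CPM with doxycycline. In TC71 it was at 4.64, 4.14 and 3.92 CPM with vehicle and 14.4, 16.1 and 16.3 CPM with doxycycline. Doxycycline libraries of both lines were above every vehicle library of either line. The means rose from 9.47 ± 0.639 to 23.0 ± 2.02 CPM in EW8 and from 4.23 ± 0.369 to 15.6 ± 1.05 CPM in TC71. On the log2 scale the EW8 response was 1.28 (SE 0.11, adjusted p 3.61e-08) and the TC71 response 1.88 (SE 0.12, adjusted p 2.82e-10).

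*LAMB3* (ENSG00000196878.14, chromosome 1, 209614870 to 209652466, minus strand), the β3 chain, differed most between the lines before induction. The EW8 vehicle libraries were at 71.7, 69.7 and 69.05 CPM, and the TC71 vehicle libraries at 1.03, 1.43 and 1.11 CPM, or 54, 89 and 57 counts. With doxycycline the EW8 libraries reached 234, 249 and 230.45 CPM and the TC71 libraries 88.8, 96.1 and 84.6 CPM. The induced TC71 cells thus lay above the uninduced EW8 cells and below the induced ones, with no overlap among the 4 groups. On the log2 scale the EW8 response was 1.76 (SE 0.07, adjusted p 3.34e-13) and the TC71 response 6.22 (SE 0.10, adjusted p 1.21e-18). That is a 3.39-fold and a 74.6-fold change.

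Levels of these chains were then set against each other per length (RPKM, CPM per kilobase of the exons of all annotated transcripts of a gene). The *LAMB3* to *LAMA3* ratio was 23.2 ± 1.46 in EW8 with vehicle and 32.5 ± 3.01 with doxycycline, and 0.888 ± 0.194 and 18.1 ± 1.61 in TC71. With vehicle, then, EW8 RNA held *LAMB3* well above *LAMA3* and TC71 RNA held similar levels of both. With doxycycline *LAMB3* was the higher of the pair in both lines. The exon length used for *LAMA3* (14678 bp) covers its long and short transcripts together, and a gene read mainly from a short transcript is set too low by this measure.

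**Figure D2:**
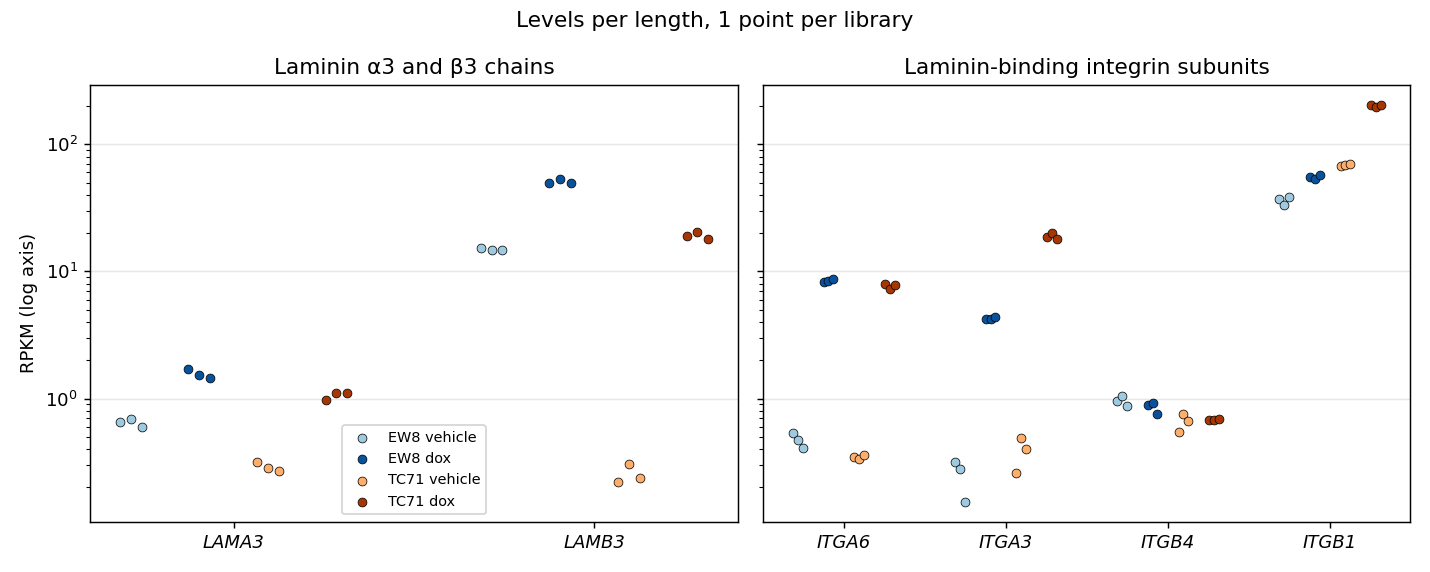
Level per length (RPKM, log axis) of *LAMA3* and *LAMB3* (left) and of laminin-binding integrin subunits (right), with 1 point per library. *LAMB3* lies above *LAMA3* in every doxycycline library, and *ITGB4* lies between 0.548 and 1.04 RPKM in all 12 libraries.

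The receptor subunits behaved differently from each other. *ITGA6* (ENSG00000091409.14, chromosome 2, 172427354 to 172506282, plus strand), the α6 subunit, was at 3.52, 3.09 and 2.68 CPM in EW8 with vehicle and 53.5, 54.7 and 56.4 CPM with doxycycline. In TC71 the vehicle libraries were at 2.25, 2.19 and 2.33 CPM and the doxycycline libraries at 52.3, 47.7 and 51.3 CPM. The lines were close to each other in both states. EW8 cells gained 4.15 (SE 0.10, adjusted p 5.09e-16) and TC71 cells 4.48 (SE 0.11, adjusted p 1.75e-16) on the log2 scale, which is 17.8-fold and 22.3-fold. Its exons share bases with 3 other genes, of which *PDK1-AS1* had the most reads, at most 29 counts in a library.

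*ITGB4* (ENSG00000132470.13, chromosome 17, 75721328 to 75757818, plus strand), the β4 subunit, was at 6.43, 7.04 and 5.86 CPM in EW8 with vehicle and 5.96, 6.24 and 5.12 CPM with doxycycline. In TC71 it was at 3.70, 5.07 and 4.50 CPM with vehicle and 4.56, 4.54 and 4.69 CPM with doxycycline. The gene was detected in every library, with 188 to 333 counts, and treated and untreated libraries overlapped. The log2 fold change was -0.16 in EW8 (95% confidence interval -0.49 to 0.18, adjusted p 0.475) and 0.05 in TC71 (-0.29 to 0.40, adjusted p 0.839), so that a log2 change of 1 in either direction lies outside the interval in both lines and small changes do not. Without TC71 vehicle replicate 1, the lowest of the 12 libraries for this gene, the TC71 value was -0.14 (adjusted p 0.555, range over the alternatives 0.522 to 1).

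The receptor's RNA therefore went from more β4 than α6 to more α6 than β4. Per length, the *ITGA6* to *ITGB4* ratio was 0.498 ± 0.0599 and 9.92 ± 1.30 in EW8 with vehicle and doxycycline, and 0.537 ± 0.0913 and 11.4 ± 0.512 in TC71. The α6 subunit also pairs with β1, encoded by *ITGB1*, which was measured with *ITGA3*, whose α3β1 integrin is the other main receptor of laminin-332. *ITGB1* was the more abundant β subunit throughout, with a per-length ratio to *ITGB4* of 38.3 ± 6.26 in EW8 with vehicle and 65.3 ± 9.75 with doxycycline, and of 107 ± 16.6 and 297 ± 4.30 in TC71. *ITGB1* rose in TC71, with a value of 1.55 (SE 0.06, adjusted p 6.78e-14), and its EW8 value of 0.61 (SE 0.06, adjusted p 4.02e-08) was under the fold limit. *ITGA3* rose from 2.46 ± 0.840 to 41.7 ± 1.07 CPM in EW8, a response of 4.11 (SE 0.19, adjusted p 2.94e-12), and from 3.77 ± 1.14 to 185 ± 10.5 CPM in TC71, a response of 5.60 (SE 0.18, adjusted p 2.01e-14).

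Both transmembrane partners were called higher, from very different starting levels. *COL17A1* (ENSG00000065618.19, chromosome 10, 104031286 to 104085957, minus strand), collagen XVII, had 0 counts in all 6 vehicle libraries. With doxycycline there were 1741, 1649 and 1416 counts in EW8 and 1513, 1563 and 1560 in TC71, or 32.0 ± 0.760 and 36.5 ± 0.941 CPM. Set against the floor of 6 counts a library, averaged over the vehicle group, the EW8 level was at least 257-fold higher and the TC71 level at least 334-fold higher (adjusted p 2.8e-14 and 1.4e-14). A count of 0 allows a level of up to that floor, which was 0.0966 to 0.145 CPM depending on the library and covers counting error only.

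*CD151* (ENSG00000177697.18, chromosome 11, 832843 to 839831, plus strand), a tetraspanin that binds α3 and α6 integrins, was abundant in every group. It was at 82.0, 98.0 and 85.6 CPM in EW8 with vehicle and 215, 206 and 189.75 CPM with doxycycline, and at 140.1, 156 and 151 CPM and 311, 321 and 299 CPM in TC71. All doxycycline libraries lay above the vehicle libraries of both lines. The EW8 response was 1.20 (SE 0.07, adjusted p 8.81e-11) and the TC71 response 1.06 (SE 0.07, adjusted p 4.02e-10). The latter is near the fold limit: it was 0.93 without TC71 vehicle replicate 1, 0.99 without EW8 doxycycline replicate 1, 1.00 without EW8 doxycycline replicate 2, and 0.96 when scaled by library size alone, each leaving 6 members called in TC71. Part of its exons overlaps *POLR2L*, which had up to 8719 counts in a library, and a read falling on both genes is given to neither by the counter's settings.

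The plaque linkers rose in both lines. *DST* (ENSG00000151914.19, chromosome 6, 56457987 to 56954628, minus strand) was at 38.1, 36.1 and 39.8 CPM in EW8 with vehicle and 124, 122 and 127 CPM with doxycycline. In TC71 it was at 76.5, 84.5 and 77.1 CPM and at 212, 221 and 212 CPM. The 4 groups did not overlap, and TC71 was the higher line in both states. EW8 cells responded by 1.71 (SE 0.06, adjusted p 5.63e-14) and TC71 cells by 1.44 (SE 0.06, adjusted p 4.04e-13) on the log2 scale. The gene makes neuronal, muscle and epithelial forms from 42341 bp of exons, and gene counts do not tell which was read.

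*PLEC* (ENSG00000178209.15, chromosome 8, 143915147 to 143976734, minus strand), plectin, a linker that is also found in cells without hemidesmosomes, was at 233, 265 and 276 CPM in EW8 with vehicle and 1092, 1062 and 902 CPM with doxycycline. In TC71 it was at 131, 152 and 136 CPM and at 439, 516 and 419 CPM. EW8 was the higher line in both states, the reverse of *DST*. The EW8 response was 1.98 (SE 0.09, adjusted p 2.32e-12) and the TC71 response 1.71 (SE 0.09, adjusted p 1.5e-11). The per-length ratio of *PLEC* to *ITGB4* went from 16.04 ± 2.37 to 70.3 ± 2.61 in EW8 and from 12.7 ± 1.23 to 39.7 ± 4.97 in TC71.

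**Figure D3:**
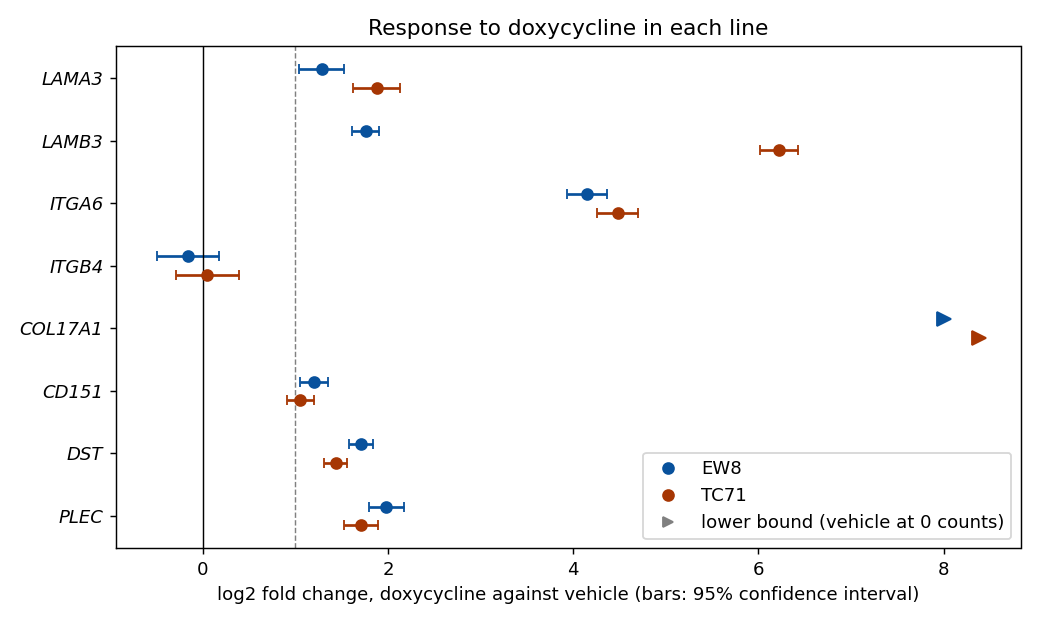
Log2 fold change of each member with doxycycline against vehicle in each line (edgeR estimate with 95% confidence interval), with the fold limit of 1 as a dashed line. Triangles are lower bounds for *COL17A1*, whose vehicle libraries had 0 counts, the *ITGB4* intervals span 0 and the *LAMB3* intervals of the lines lie far apart.

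The next comparison asked whether the responses differed between the lines, as TC71 minus EW8 on the log2 scale. *LAMB3* was the member that passed both limits, with a difference of 4.46 (SE 0.12, adjusted p 4.06e-14), and 1 of 8 members called higher and 0 lower stand beside 4.18% of all genes called higher and 2.87% called lower. DESeq2 gave the same counts while, before adjustment, those with p under 0.05 were 3 members higher and 2 lower. *LAMA3* (0.60, SE 0.16, adjusted p 0.0146) and *DST* (-0.27, SE 0.08, adjusted p 0.025) passed the p limit and not the fold limit. *LAMA3* missed the p limit without EW8 doxycycline replicate 2 (0.48, adjusted p 0.0889), EW8 doxycycline replicate 3 (0.45, 0.0953) or TC71 vehicle replicate 3 (0.46, 0.0792), in a range over the alternatives from 0.00541 to 0.0953. In those fits the median difference over all genes tested was -0.065, -0.055 and -0.047, against 0.035 with all libraries. *DST* missed the p limit without EW8 vehicle replicate 2 (-0.24, adjusted p 0.0633), TC71 vehicle replicate 2 (-0.23, 0.073), TC71 doxycycline replicate 1 (-0.26, 0.0651) or TC71 doxycycline replicate 3 (-0.26, 0.0586), in a range from 0.00021 to 0.073. The median over all genes was between 0.022 and 0.033 in the latter fits.

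For the other members no difference was called, and the intervals set its possible size. The difference was 0.33 for *ITGA6* (95% confidence interval 0.03 to 0.63, adjusted p 0.125), 0.21 for *ITGB4* (-0.27 to 0.69, adjusted p 0.609), -0.15 for *CD151* (-0.35 to 0.06, adjusted p 0.351) and -0.27 for *PLEC* (-0.53 to -0.01, adjusted p 0.141). Without TC71 vehicle replicate 1, *CD151* was at -0.31 (adjusted p 0.00818), *PLEC* at -0.44 (0.00252) and *DST* at -0.42 (0.00021), all under the fold limit. The median difference over all genes tested also moved in that fit, from 0.035 to -0.062. How much of the members' moves is shared by genes at large was not tested. Over the alternatives the adjusted p ran from 0.00818 to 0.634 for *CD151* and from 0.00252 to 0.333 for *PLEC*. For *COL17A1* no difference of the responses can be given, since both vehicle groups were at 0. Among the partners, *ITGA3* was called (1.49, SE 0.26, adjusted p 0.00042) and *ITGB1* passed the p limit alone (0.94, SE 0.08, adjusted p 7.68e-08).

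The lines were also compared within each treatment. With vehicle, *DST* was higher in TC71 (log2 difference 1.06, SE 0.06, adjusted p 2.36e-11), and *LAMB3* (-5.86, SE 0.10, adjusted p 2.53e-18) and *LAMA3* (-1.16, SE 0.12, adjusted p 1.16e-07) were lower. These are 1 of 8 members higher and 2 of 8 lower, beside 11.6% of all genes called higher and 18.9% called lower. *CD151* (0.75), *PLEC* (-0.88), *ITGB4* (-0.54) and *ITGA6* (-0.45) passed the p limit alone, with adjusted p of 2.52e-08, 6.77e-08, 0.00717 and 0.0023. For *ITGA6* the adjusted p ran from 0.00124 to 0.113 over the alternatives, the last in a fit of the vehicle libraries alone. The *ITGB4* value was -0.32 (adjusted p 0.113, range over the alternatives 0.00447 to 0.113) without TC71 vehicle replicate 1. *COL17A1* was at 0 in both lines and has no fold.

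With doxycycline, 0 of 8 members were called higher in TC71 and 2 lower, beside 12.6% and 18.4% of all genes. The lower ones were *LAMB3* (-1.41, SE 0.07, adjusted p 4.07e-12) and *PLEC* (-1.15, SE 0.09, adjusted p 1.67e-09). DESeq2 also called 0 higher while, before adjustment, those with p under 0.05 were 2, *CD151* (0.61, adjusted p 3.66e-07) and *DST* (0.79, adjusted p 9.71e-10), both under the fold limit. *LAMA3* was at -0.56 (adjusted p 0.000242). How often the libraries of the lines separate among all genes was not counted. *ITGA6* (-0.12, 95% confidence interval -0.30 to 0.06, adjusted p 0.226), *ITGB4* (-0.33, -0.67 to 0.01, adjusted p 0.0863) and *COL17A1* (0.19, -0.02 to 0.40, adjusted p 0.107) did not pass the test, although the libraries of the lines did not overlap for these genes either. Each was under the p limit in some alternative, with adjusted p from 0.0416 to 0.507 for *ITGA6*, 0.0327 to 0.216 for *ITGB4* and 0.0366 to 0.398 for *COL17A1*, and each stayed under the fold limit.

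Per length, the members kept part of their order across groups. In EW8 with vehicle the order by mean RPKM was *CD151* (22.5), *PLEC* (15.2) and *LAMB3* (14.96), followed far below by *ITGB4* (0.953), *DST* (0.898), *LAMA3* (0.645), *ITGA6* (0.474) and *COL17A1* (0). The libraries of *PLEC* and *LAMB3* overlapped there, as did those of *ITGB4* and *DST*. In EW8 with doxycycline *PLEC* (60.0), *CD151* (51.7) and *LAMB3* (50.7) led, then *ITGA6* (8.40), *COL17A1* (4.53), *DST* (2.94), *LAMA3* (1.57) and *ITGB4* (0.854). The libraries of *PLEC*, *CD151* and *LAMB3* all overlapped with each other there. In TC71 with vehicle the order was *CD151* (37.9), *PLEC* (8.23), *DST* (1.87), *ITGB4* (0.655), *ITGA6* (0.346), *LAMA3* (0.288), *LAMB3* (0.254) and *COL17A1* (0), with *LAMA3* and *LAMB3* overlapping. In TC71 with doxycycline it was *CD151* (78.8), *PLEC* (26.9), *LAMB3* (19.2), *ITGA6* (7.72), *COL17A1* (5.17), *DST* (5.07), *LAMA3* (1.06) and *ITGB4* (0.680), with *COL17A1* and *DST* overlapping. *ITGB4* thus held the fourth place with vehicle and the last with doxycycline in both lines, while its own change did not pass the test.

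Other genes of the pathway were taken from lists written with results of these data known. Of 11 direct partners (anchoring fibril collagen, integrin subunits, adaptors, keratins and tetraspanins), 9 were tested, of which 4 were called higher in EW8 and 6 in TC71, and 0 lower (also with DESeq2, and at p under 0.05 before adjustment). Their median log2 fold change was 0.88 and 1.55. *COL7A1*, which forms the fibrils that anchor laminin-332 to the dermis, rose in both lines, with 2.31 (SE 0.33, adjusted p 1.67e-05) for EW8 and 3.36 (SE 0.34, adjusted p 1.86e-07) for TC71, where TC71 vehicle replicate 1 held 284 counts against 112 and 58 in the others. Without that library the TC71 value was 4.18 and the difference between the lines 1.83 (adjusted p 1.63e-06), against 1.06 (adjusted p 0.13) with it, and over the alternatives this p ran from 1.63e-06 to 0.305. The tetraspanins *CD9* (3.51 and 5.54) and *CD82* (3.01 and 3.24) rose in both lines, and the integrin activator *FERMT2* was called in TC71 (1.25) and stayed under the fold limit in EW8 (0.88). *KRT5* and *KRT14*, the keratins to which epidermal hemidesmosomes attach, were at too few counts to test.

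Of 12 proteases and regulators linked to laminin-332 processing, 9 were tested. In EW8 4 were called higher and 0 lower (0 also with DESeq2, 1 at p under 0.05 before adjustment), and in TC71 6 were higher and 1 lower, with medians of 0.87 and 2.79. *PLAU*, the urokinase-type plasminogen activator, went from 4 to 21 counts with vehicle to 117 ± 9.58 CPM in EW8 (log2 fold change 9.09) and from 8 to 28 counts to 25.0 ± 0.543 CPM in TC71 (6.34). Without EW8 vehicle replicate 3 the EW8 value was 10.05. *PLAT*, the tissue-type activator, rose by 3.68 and 4.73, and *PLAUR*, the urokinase receptor, by 3.19 and 4.12. *MMP2*, a gelatinase that can cut laminin-332, rose by 1.32 in EW8 and 4.07 in TC71, a difference of 2.75 (SE 0.11, adjusted p 6.52e-12). *BMP1*, which processes laminin-332, was called in TC71 (2.79) and stayed under the fold limit in EW8 (0.87), and the related protease *TLL1* fell by 1.36 in TC71 (adjusted p 4.37e-07), both outside the rule for named genes and chosen after their values were seen.

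Of 16 signalling partners of integrin α6β4, all were tested, and 4 were called higher in EW8, 5 in TC71 and 0 lower in either, with medians of 0.02 and 0.06. DESeq2 also called 0 lower while, before adjustment, those with p under 0.05 were 4 lower in EW8 and 3 in TC71. *MET*, the hepatocyte growth factor receptor, rose by 4.97 in EW8 and 4.52 in TC71, and *SFN* (14-3-3 sigma) by 4.79 and 5.02 from at most 10 and 22 counts. *PRKCA*, a kinase known to phosphorylate β4, rose by 1.49 and 1.93. *EGFR* rose by 2.75 in EW8, from 7.40 ± 0.764 to 49.7 ± 1.91 CPM, while in TC71 it went from 0 counts in every vehicle library to between 8 and 22, at least 3.45-fold higher.

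Of the 5 other plakins, 2 were called higher in EW8 and 3 in TC71, and 0 lower (0 also with DESeq2, and 1 in EW8 and 0 in TC71 at p under 0.05 before adjustment). *DSP*, desmoplakin of the desmosome, rose by 3.06 and 3.01, and *PPL*, periplakin, by 1.63 and 3.60. *EPPK1*, epiplakin, rose by 2.03 in TC71 (SE 0.29, adjusted p 1.21e-05), from 0.312 ± 0.113 to 1.31 ± 0.232 CPM. In EW8 its value was -0.62 (SE 0.18, adjusted p 0.00789), under the fold limit, and the responses differed by 2.65 (SE 0.34, adjusted p 1.56e-05).

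**Figure D4:**
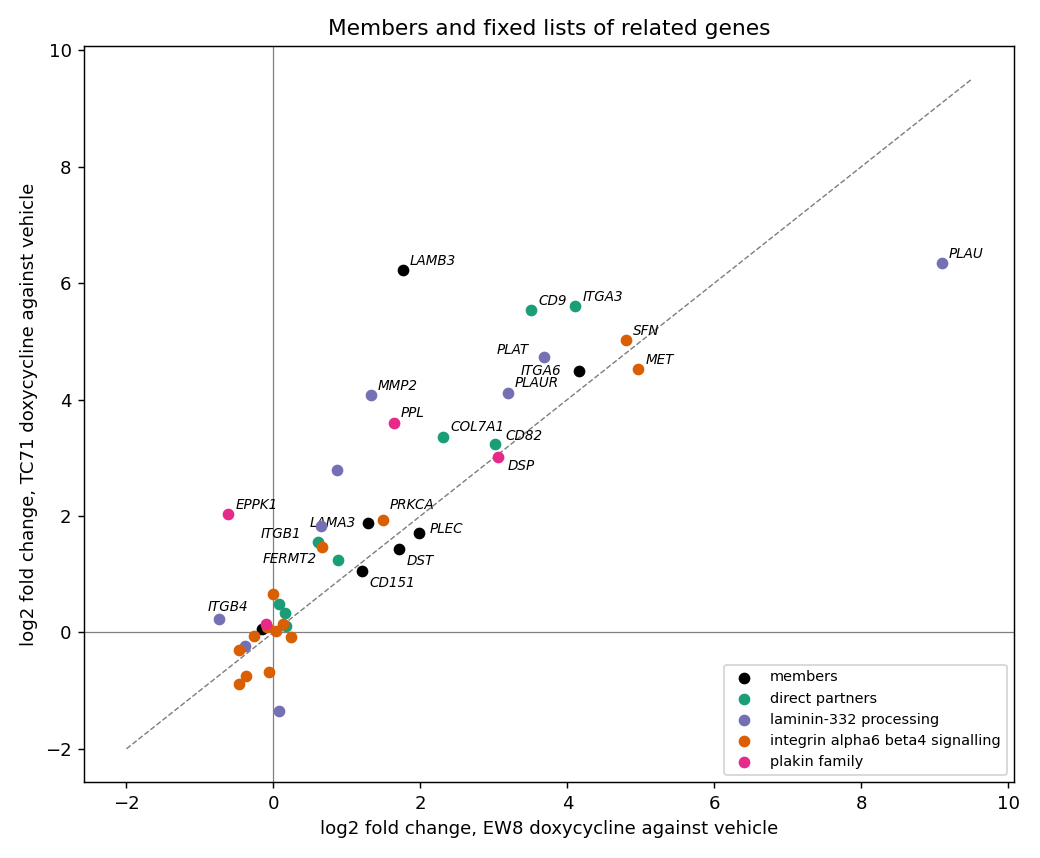
Log2 fold change with doxycycline in EW8 (horizontal) and TC71 (vertical) for members and related genes that were tested and had counts above the floor, with the line of equal response dashed. *LAMB3* lies furthest above that line among the members, *ITGB4* lies near 0 on both axes, and *PLAU* lies below the line.

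As a description of pattern, the tested genes most like each member were sought by Pearson's r of log2 CPM over the 12 libraries, among 12657 genes with a mean log2 CPM of at least 1. The libraries form 4 groups, so r mostly reflects 4 group means. *LAMB3* was most like *FLNC* (0.999) and *EVA1C* (0.997), and *LAMA3* most like *MICALL2* and *CLU* (both 0.994). *ITGA6* was most like *TNC* (0.998) and *PFKFB3* (0.997), and *COL17A1* like *GADD45A* and *TNC* (both 0.997). *DST* was most like *LPP* (0.998) and *QSOX1* (0.997), *CD151* like *QSOX1* and *SEC61A1* (both 0.996), and *PLEC* like *EFHD2* (0.998) and *ABR* (0.997). *ITGB4* had the lowest best match, with *LSS* (0.958) and *RASSF7* (0.954).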

How the data were processed

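The authors deposited raw read counts per gene for 12 polyA RNA libraries made with a stranded Illumina kit. Their reads were aligned to hg38 (GRCh38) with STAR and counted by featureCounts 2.0.1 on exons of the GENCODE release 29 annotation, per the file headers without options for pairs, strand or reads at several places. Mates were counted separately (67.3% to 69.8% of the counts from 20 to 199 were even), strand was not used, and gene isoforms and transgene reads were not separated. The 2 copies of 14 well-covered pseudoautosomal genes had equal totals, so reads at several places appear to have been counted at each. The table's exon length, in base pairs, was used for RPKM.

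Of the 58721 gene identifiers, 58252 were paired with a symbol. All 12 libraries entered 1 edgeR 4.0.16 quasi-likelihood fit (R 4.3.3, TMM, filterByExpr) with the 4 groups as levels, and 5 contrasts were tested. SE and 95% intervals were derived from the fitted log2 fold change and its F statistic. DESeq2 1.42.0 was an alternative. The steps were tested on simulated data. The members, lists and tests were chosen with earlier results of these data known. Named genes were the members, *JUN*, *FOS*, *COL7A1*, *ITGA3*, *ITGB1*, up to 4 other called genes of each list with the largest mean absolute log2 fold change, and the 2 genes most like each member. A further partner gene is not reported here. Markers were given as levels, counts above the floor and calls, and those named were chosen after their values were seen. Folds against a group at the floor are bounds (mean CPM over the mean CPM of 6 counts).

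The replicate numbers are not said to mark a shared culture, so they were not used as a block. Between same-numbered libraries of different groups, deviations from the group means had an r between -0.12 and 0.11.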

Additional observations from a re-analysis of the deposited data

Results flagged for a closer look

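The doxycycline response differed between the lines, by the test of the difference itself (TC71 minus EW8, log2, edgeR, adjusted p under 0.05), for 22 of the 33 named genes that were compared. Of these, 14 also passed the fold limit. The 33 leave out the genes most like each member and the Ewing sarcoma markers named above. Among those markers, *LIPI* passed the p limit and not the fold limit (0.75, adjusted p 0.00249), while *PAX7*, *CD99* and *CCND1* did not pass the p limit. Among all 21013 genes tested, 4057 passed the p limit, and 4.18% were called higher and 2.87% lower at both limits. Most of the 33 were named for large responses or after their values were seen, so their share does not describe genes at large. Among the members, the difference was 4.46 for *LAMB3* (adjusted p 4.06e-14), whose 3 TC71 vehicle libraries all lay below every EW8 vehicle library. It was 0.60 for *LAMA3* (adjusted p 0.0146) and -0.27 for *DST* (adjusted p 0.025), both under the fold limit and lost without some single libraries. Of the direct partners, it was 1.49 for *ITGA3* (adjusted p 0.00042), 2.03 for *CD9* (4.19e-05), 0.94 for *ITGB1* (7.68e-08) and 0.37 for *FERMT2* (0.00564, up to 0.132 over the alternatives). Of the proteases and their regulators, it was 2.75 for *MMP2* (6.52e-12), 1.93 for *BMP1* (9.42e-09), 1.04 for *PLAT* (0.000206), 0.93 for *PLAUR* (0.000264), -1.43 for *TLL1* (4.06e-05) and -2.75 for *PLAU* (0.000205). The *PLAU* value was -3.76 without EW8 vehicle replicate 3, and the *PLAT* value was as low as 0.89 when single libraries were left out. It was 0.44 for the kinase *PRKCA* (0.0225, up to 0.239 over the alternatives), and 1.97 for *PPL* (0.00219) and 2.65 for *EPPK1* (1.56e-05) of the plakins. Of the keratinocyte and other epithelial markers, it was 3.28 for *EPCAM* (0.00176, and 3.91 without TC71 vehicle replicate 2), 0.94 for *PKP1* (1.4e-08), -1.03 for *PERP* (0.00103, and -0.84 without EW8 vehicle replicate 2) and -2.78 for *CDH3* (2.52e-05). The induced genes themselves differed, by 0.73 for *JUN* (0.00217) and 2.21 for *FOS* (6.41e-12). The cause of these differences was not tested.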

How the results depend on the processing

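Of the calls on members, that of *CD151* in TC71 changed under the alternatives as described above, and the other 13 calls of a response in a line held under each alternative that tested them. The counts of members called with doxycycline, 7 in EW8 and 7 in TC71, were the same with DESeq2, with median-ratio scaling, with counts halved and with the replicate block. With at least 10 counts in every library *COL17A1* is not tested, and 1600, 1909, 966, 3566 and 3464 genes were called in EW8, in TC71, for their difference, between the lines with vehicle and between them with doxycycline, against 3112, 3355, 1481, 6420 and 6516 in the report. With no fold limit these counts were 9216, 9578, 4057, 12974 and 13135, and the members called were 2 higher and 1 lower for the difference, 2 higher and 5 lower with vehicle, and 2 higher and 3 lower with doxycycline. Fewer genes tested and a wider limit are what these settings are made of. The sign of the *ITGB4* value in TC71 (0.05) was not stable: it was -0.04 with library size alone, 0 with counts halved, and between -0.14 and 0.16 when single libraries were left out (0, -0.01 and -0.14 among them). The *ITGB4* difference (0.21) was between -0.03, without TC71 vehicle replicate 1, and 0.32 when single libraries were left out. With no filter on low counts 7 members were also called in each line, but edgeR's prior degrees of freedom went from 9.37 to infinite, so that a gene's own spread no longer entered its test and this setting says nothing about stability; the *COL7A1* difference was called there (1.06, adjusted p 1.01e-05). The fit of only the groups compared cannot give the difference of the responses. The block on replicate number, where numbers share no stated culture, left all 112 gene values on their side of the threshold, with 7 members called in each line. Low counts limit *COL17A1*, *KRT15* and *VWF* with vehicle in both lines, and *EGFR*, *PECAM1* and *CDH5* with vehicle in TC71.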
